A study of Rattus norvegicus with 6 samples.

Results

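The 200 circular RNAs (circRNAs) described here gave the brightest spots on a circRNA microarray of rat spinal cord. They were chosen by their measured signal, so their levels and ranks are given as a description. The array carried 14145 circRNA probes, and 11587 of them (81.9%) passed on all 6 arrays as well above background and free of outlier marks. These were ranked by background-corrected intensity within each array, the 6 ranks were averaged, and the 200 probes with the lowest mean rank, 1.41% of all circRNA probes, were kept. Among the 200 brightest of all circRNA probes, 3 could not be ranked, and all 3 carried an outlier mark. The choice weighed the sham and SCI arrays equally and did not use the difference between the groups.

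All 6 animals were 11-week-old female Sprague-Dawley rats. The 3 rats of the sham group had a laminectomy alone, and the 3 rats of the SCI group had a laminectomy plus a moderate contusion of the exposed cord at T10. Both groups received the same anesthesia and daily penicillin, and cord was collected 3 days after surgery. The piece taken was 1 cm long, included the epicenter, and came from animals that were not perfused, so it could hold blood and, in the SCI group, both lesion and neighboring cord. Total RNA was digested with RNase R, labeled with Cy3 and hybridized, with 1 array for each rat.

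A circRNA forms when the spliceosome joins a downstream splice site to an upstream one, which closes the exons into a ring. Without free ends the ring resists exonucleases such as RNase R, so circRNAs tend to be long-lived. They are abundant in nervous tissue, where neuronal genes give rise to many of them, and a small number of circRNAs usually makes up much of the total. The ranking asks which probes gave the most signal and whether that set differed after injury. Signals were not calibrated between probes, so a rank or a share of signal is not a rank or share of circRNA molecules. The probes are identified by the number of the maker, and 0 of the 14145 could be paired here with a gene, a circRNA name or a sequence. Members are therefore given by probe number, and the tissue label could not be checked against marker genes.

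No spot was saturated on any array, and between 88.8% and 94.0% of the circRNA probes were well above background. The summed circRNA signal came to 2.22e+06, 3.30e+06 and 2.71e+06 intensity units on the arrays of sham replicates 1, 2 and 3. It came to 1.40e+06, 2.19e+06 and 1.40e+06 units on those of SCI replicates 1, 2 and 3. Every SCI array thus had a lower sum than every sham array, SCI replicate 2 only just. The median circRNA signal of SCI replicate 2 (38.9 units) was above that of sham replicate 1 (36.0 units). On the slide, SCI replicate 3 shared row 1 with the whole sham group, whereas SCI replicates 1 and 2 were in row 2. The array of SCI replicate 2 stood apart from its group, with a Spearman rho over all ranked probes of 0.867 and 0.805 with the other SCI arrays and 0.889 with sham replicate 1. Sham replicate 2 had the highest total signal. In cord tissue, fewer cells of a type and less RNA per cell cannot be told apart.

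The 200 members held a larger share of the circRNA signal on the SCI arrays. Sham replicates 1, 2 and 3 had shares of 38.5%, 31.5% and 38.3%, and SCI replicates 1, 2 and 3 had 45.6%, 39.7% and 41.9%. Every SCI array lay above every sham array, and the closest pair, SCI replicate 2 and sham replicate 1, differed little. The mean share was 36.1% ± 3.98 (SD, n = 3) in the sham group and 42.4% ± 3.01 (SD, n = 3) in the SCI group, a difference of 6.30 percentage points. An exact permutation test over the 20 assignments of arrays gave a two-sided p of 0.1, the smallest that 3 arrays against 3 allow. Within row 1 of the slide, the share on the array of SCI replicate 3 was above those of the 3 sham arrays. For the same members the difference was 4.0 points without sham replicate 2 and 7.66 points without SCI replicate 2. With members chosen anew on the median spot intensity without background correction, it was 3.65 points. The part of the lower total signal on the SCI arrays in this difference was not tested.

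The excess lay at the top of the order. The first 50 members held 24.2%, 17.4% and 23.1% of the circRNA signal in the sham group, against 33.1%, 26.6% and 28.3% in the SCI group. The groups did not overlap (exact permutation test, two-sided p = 0.1). Members 51 to 200 went the other way, with 14.3%, 14.1% and 15.1% in the sham group and 12.5%, 13.1% and 13.6% in the SCI group, again without overlap (p = 0.1 in the same exact test). The next 200 probes in the order held 9.87% ± 0.387 (SD, n = 3) of the signal on sham arrays and 8.40% ± 0.655 (SD, n = 3) on SCI arrays, and resembled members 51 to 200 in direction. A single probe, first on all arrays, held between 3.65% and 4.46% on the sham arrays and between 5.30% and 8.20% on the SCI arrays.

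**Figure D1:**
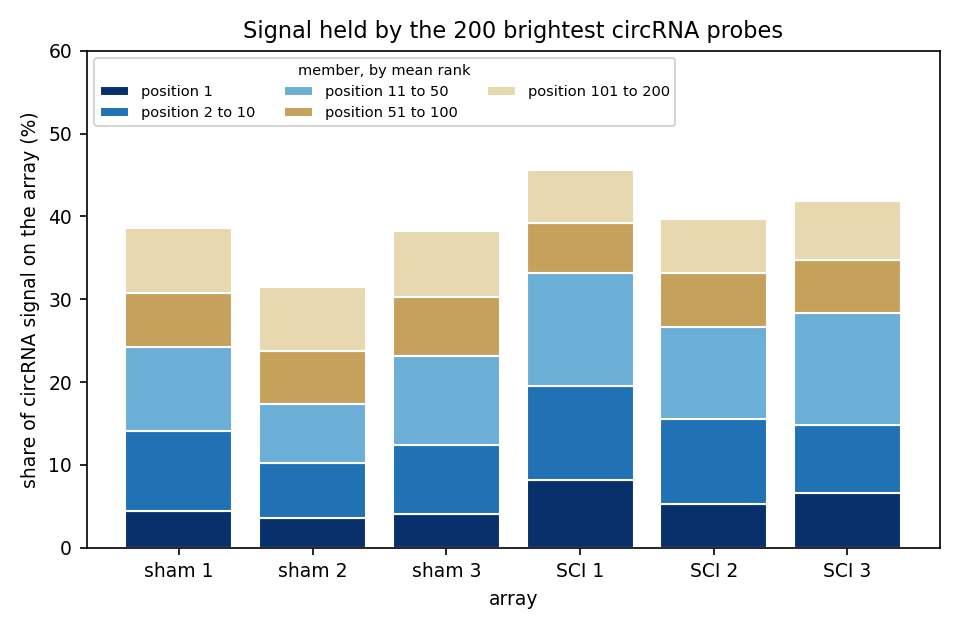
Stacked bars give the percent of circRNA signal held on each array by members at position 1, positions 2 to 10, 11 to 50 and 51 to 100, and the last 100 positions of the mean rank. The 3 SCI bars reach 39.7% to 45.6% and the 3 sham bars 31.5% to 38.5%, and the blue segments together (positions 1 to 50) are taller on every SCI array while the tan segments together are not. Positions 2 to 10 alone held less on SCI replicate 3 (8.21%) than on sham replicates 1 (9.69%) and 3 (8.38%).

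In intensity units before any normalization, the difference between the groups was larger outside the top 50 than within it. The summed signal of members 1 to 50 was 537389, 574700 and 626855 units in the sham group, against 463630, 582076 and 396226 units in the SCI group. The SCI mean was 82.9% of the sham mean and the groups overlapped (exact permutation test, two-sided p = 0.3). For members 51 to 200 the SCI mean was 54.4% of the sham mean, and for all other circRNA probes it was 55.0%, in both cases without overlap of the groups (two-sided p = 0.1 in the exact test for each). The ratio of the means for members 51 to 200 was thus close to that of the rest of the array, while that of the first 50 members was nearer to 1.

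**Figure D2:**
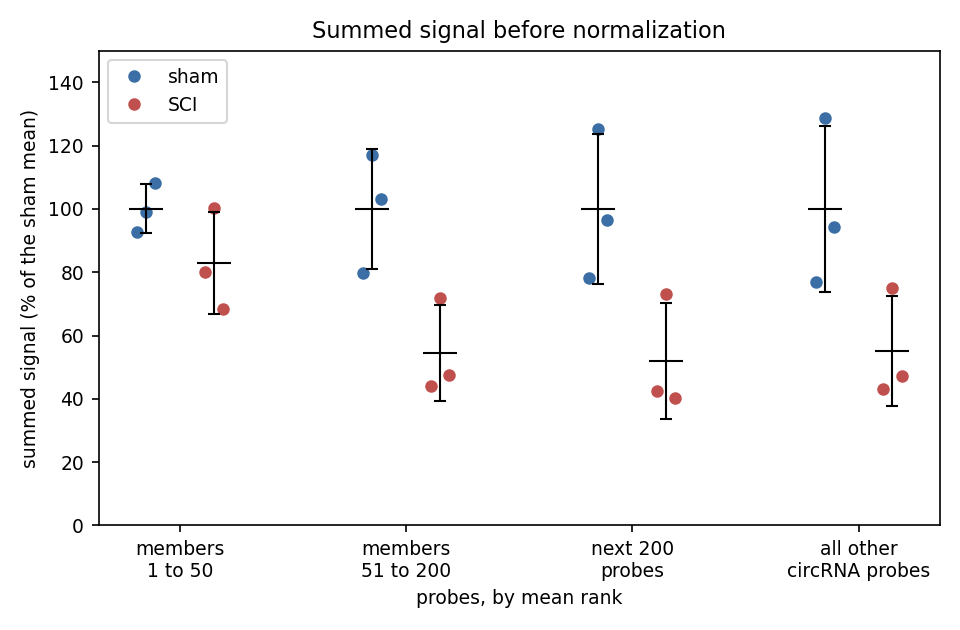
Points give the summed signal before normalization on each array, in percent of the sham mean, for members 1 to 50, members 51 to 200, the next 200 probes and all other circRNA probes. Horizontal lines are group means and bars are ± 1 SD (n = 3), and the groups overlap only for members 1 to 50, where the SCI mean is 82.9%.

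A measure that does not use the list of members gave a wider spread. The number of probes needed to reach 50% of the circRNA signal was 406, 438 and 368 for sham replicates 1, 2 and 3, against 182, 371 and 318 for the SCI replicates. The groups overlapped, since SCI replicate 2 needed more probes than sham replicate 3 (exact permutation test, two-sided p = 0.2). When each array was allowed its own 200 brightest probes, these held 39.7% ± 1.68 (SD, n = 3) in the sham group and 45.9% ± 4.82 (SD, n = 3) in the SCI group (two-sided p = 0.1, exact test). The arrays that choose the members set the size of this contrast. For the 200 brightest chosen on the sham arrays alone the SCI share was 0.58 points higher, and for those chosen on the SCI arrays alone it was 11.1 points higher.

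The first 5 members held nearly the same ranks on all arrays. ASCRPR003948 was the brightest circRNA probe on all 6 arrays, at 98960, 120494 and 110545 intensity units in the sham group and 114825, 115963 and 92825 units in the SCI group. Sham replicate 1 was below SCI replicates 1 and 2, so the groups overlapped although the summed circRNA signal was lower on the SCI arrays. ASCRPR013743 ranked second on all 6 arrays, at 72812, 72613 and 71219 units in the sham group and 66929, 71153 and 36702 units in the SCI group, where SCI replicate 3 was far below the others and SCI replicate 2 just below the lowest sham array. These 2 probes had the narrowest range of ranks of all members. ASCRPR001748 stayed between ranks 3 and 5, at 41033, 37220 and 39772 units in sham and 26709, 34880 and 13737 units in SCI. ASCRPR011276 stayed between ranks 3 and 7, at 39938, 40713 and 29525 units in sham and 15061, 47825 and 12018 units in SCI. Both were lowest on SCI replicate 3. The groups did not overlap for ASCRPR001748, and they did for ASCRPR011276, which was highest on SCI replicate 2. ASCRPR005965 stayed between ranks 4 and 6, at 16525, 17503 and 21188 units in sham and 11650, 18236 and 14868 units in SCI, with overlapping groups. Quantile normalization gives each rank the same value on all arrays, so it set ASCRPR003948 to a log2 intensity of 16.73 everywhere, and normalized values of probes this bright only restate their ranks.

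The ranks below the top were less stable. Sham replicates 1, 2 and 3 each placed 156, 110 and 143 of the members among their own 200 brightest, and SCI replicates 1, 2 and 3 placed 142, 156 and 148. A total of 70 members (35%) were among the 200 brightest of all 6 arrays, 38 of 5 arrays, 27 of 4, 26 of 3, 22 of 2 and 15 of 1 array. For the 2 remaining members no array placed them in its own top 200, and they entered through their mean rank. Over the 6 arrays, 419 ranked probes were in the top 200 of at least 1, of which 221 were not members. Sham replicate 2 decided much of this, since without it 51.5% of members chosen on the other arrays were in the top 200 of each, and without any other single array between 35% and 36.5%.

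The range between the best and the worst rank of a member had a median of 190.5 places, with quartiles of 82 and 317 and a maximum of 825. It widened down the list, from a median of 41.5 places for members 1 to 50 to 359 for the last 50. The median range was 82.5 places over the 3 sham arrays and 69.5 over the 3 SCI arrays, but a range over fewer arrays cannot exceed that over all 6, so these values are not compared with it. Without sham replicate 2 the median range over 5 arrays was 94.5 places, and without any other single array it lay between 171.5 and 191 places. The last member, ASCRPR004344, had a mean rank of 301.5 and signals of 898, 968 and 1699 units in sham and 1064, 896 and 1113 units in SCI. The first probe outside, ASCRPR004590, had a mean rank of 303.8 and signals of 582, 1317 and 1134 units in sham and 1013, 3350 and 885 units in SCI. The boundary thus separates probes with nearly the same mean rank.

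On average, arrays of a group ordered the members more alike than arrays of different groups. Spearman's rho over the 200 members averaged 0.881 for the 3 pairs of sham arrays, 0.795 for the 3 pairs of SCI arrays and 0.551 for the 9 pairs across groups. The members are not independent replicates, and all pairs share arrays, so these values are a description. The SCI arrays were not alike. SCI replicates 1 and 3 had a rho of 0.943, while SCI replicate 2 had 0.744 and 0.699 with them. SCI replicate 2 had higher values with sham replicates 1 (0.845) and 3 (0.774), and 0.671 with sham replicate 2. The lowest rho was 0.195, between sham replicate 2 and SCI replicate 3.

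Choosing the 200 brightest within each group gave lists that shared 115 probes (57.5% of each). The members made up 142 of the sham list and 163 of the SCI list. By mean rank, 139 members stood higher in the SCI group, 58 stood higher in the sham group and 3 were equal. The shifts were unequal in size, since the median was a gain of 22.5 places in SCI and the extremes were a gain of 252 and a loss of 490.7 places. There were 48 members (24%) ranked better on every SCI array than on every sham array, and 31 (15.5%) ranked worse on every SCI array. Over all 11587 ranked probes these patterns were found for 22.3% and 21.9%. Gains of more than 100 places were found for 44 members and losses of more than 100 places for 33. A total of 9 members were in the top 200 of all sham arrays and of no SCI array, and 5 had the opposite pattern.

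**Figure D3:**
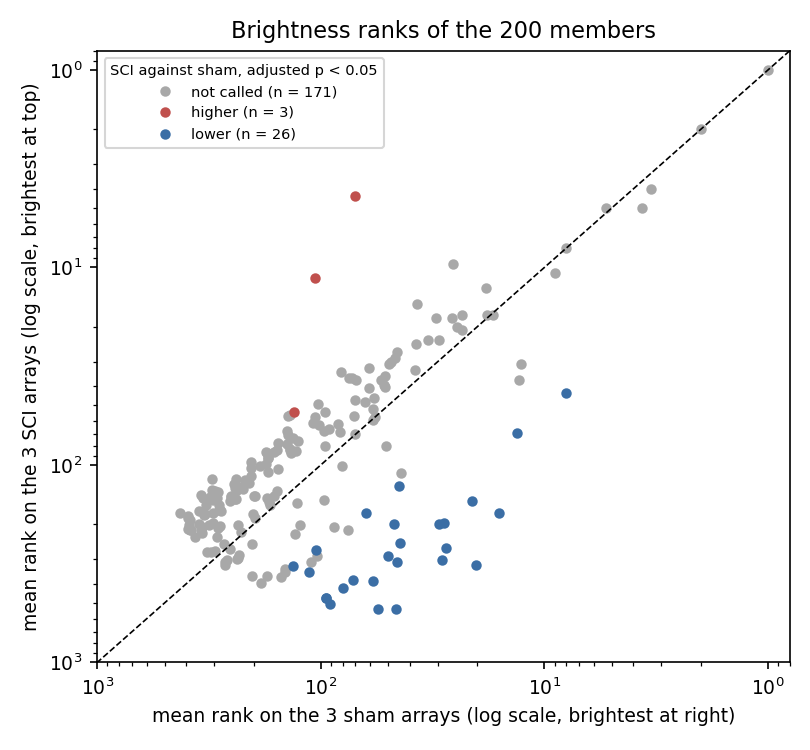
Each point is 1 of the 200 members, with its mean rank on the 3 sham arrays (x) and the 3 SCI arrays (y), both on a log scale with the brightest probes at the upper right. Most points (139) lie above the line of equal rank and close to it, the 26 members called lower in SCI lie well below the line, and 2 of the 3 called higher lie far above it.

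Few members passed the test between the groups. After quantile normalization of the log2 intensities, the groups were tested with limma over all 13279 circRNAs well above background on 3 or more arrays, with Benjamini-Hochberg adjustment and without pairing of arrays by replicate number. At an adjusted p under 0.05, 29 members (14.5%) were called, 3 higher and 26 lower in the SCI group. Over all tested circRNAs the call rate was 24.9%, with 9.31% higher and 15.6% lower. At the threshold of the study's methods, a 2-fold change and an unadjusted p below 0.05, 36 members (18%) were called, 4 higher and 32 lower, beside 32.4% of all tested circRNAs, 14.1% higher and 18.3% lower. The order of these rates depended on the intensity used. Taking each spot's median intensity with no background subtracted, 38 members (19%) passed this threshold, beside 14.6% of all tested circRNAs, and with its normexp correction 34 (17%), beside 7.43%. At the adjusted p the rates were 17.5% beside 20.3% and 17% beside 15.7%. The fold change stayed under 2 for 163 members (81.5%), for 66.1% of all tested circRNAs and for 61.5% of the next 200 probes. The way the members were chosen bears on these shares: a probe with large losses of rank in 1 group has a poor mean rank, so the rule favors probes that are bright in both groups. When the 200 brightest were chosen on the sham arrays alone, 80 were called, 3 higher and 77 lower, and when they were chosen on the SCI arrays alone, 27 were called, 18 higher and 9 lower. The call rate of the members thus depended on the choice of members and on the intensity, and nothing is read from its place beside that of all tested circRNAs.

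Single arrays moved the number of calls. Leaving out sham replicate 2 gave 14 called members (7%, beside 7.21% of all tested circRNAs) and leaving out SCI replicate 1 gave 17 (8.5%, beside 11.2%), while leaving out SCI replicate 2 gave 53 (26.5%, beside 42.6%). A total of 14 members, 12 lower and 2 higher, were called with each array left out in turn. The share of all tested circRNAs called in this way was not counted. The 26 members called lower and the 3 called higher kept their direction in all of these fits. Their groups did not overlap after normalization, which was not repeated, so leaving out an array could not change a direction.

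The direction of the small shifts depended on the scaling. The median log2 fold change of the members was 0.33 after quantile normalization, where that of all tested circRNAs was 0.09. It was 0.50 after scaling each array to its 75th percentile (all tested 0.40) and -0.36 with no normalization between arrays (all tested -0.45). The last 2 scalings differ by 1 constant for every probe, so the change of sign between them comes from the scaling alone, and the excess of the members over all tested circRNAs is the same value in both. The sign of a small shift is thus set by the scaling. The called members were less affected. With the 75th percentile, 39 members were called, 6 higher and 33 lower, beside 23.0% higher and 13.2% lower among all tested circRNAs. With no normalization, 41 were called, 2 higher and 39 lower, beside 3.00% and 20.7%. All 26 members called lower after quantile normalization were called lower under both of these scalings, and 2 of the 3 called higher were called under both.

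**Figure D4:**
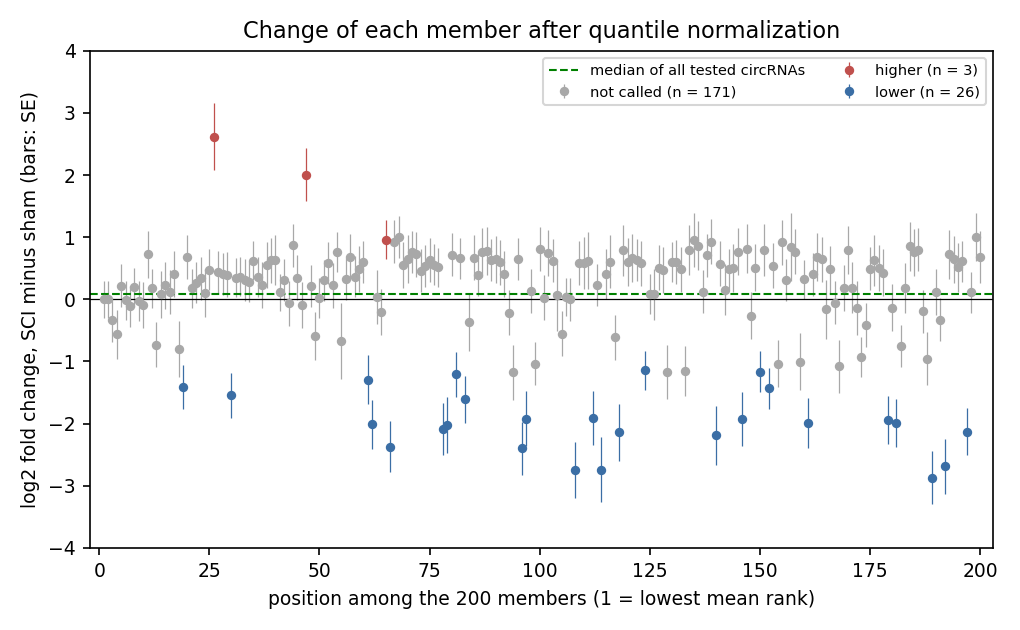
The log2 fold change (SCI minus sham, quantile-normalized) of each member is plotted against its position in the order, with bars of ± 1 SE from the limma fit on 3 arrays per group. Gray points above 0 form a band that mostly stays under 1, the 26 blue points (called lower) run from -1.14 to -2.87, and the dashed line at 0.09 is the median of all tested circRNAs.

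Among the calls 26 members were lower (13%, beside 15.6% of all tested circRNAs) and 3 higher (1.5%, beside 9.31%). In this quantile-normalized fit lower calls also outnumbered higher ones over all tested circRNAs. After 75th percentile scaling they did not (13.2% lower, 23.0% higher), while the members stayed at 16.5% lower and 3% higher. Chosen on the SCI arrays alone, the members gave 4.5% lower and 9% higher, so nothing is read from this balance. The log2 fold changes of the 26 ran from -1.14 to -2.87 with a median of -1.99, which is a median decrease of 3.97-fold. Of the first 50 members, 2 (4%) were called lower and 2 (4%) higher. Members 51 to 100 held 9 called lower (18%), the next 50 held 8 (16%) and the last 50 held 7 (14%), beside the same 15.6%. Before normalization the median signal of the 26 was 3358, 8536 and 5580 units in the sham group, against 545, 1907 and 480 units in the SCI group. Sham replicate 2 was the highest sham array for 25 of them, and SCI replicate 2 lay between the sham arrays and the other SCI arrays for 25. All 26 were among the 200 brightest of every sham array, while on the SCI arrays 5, 17 and 5 of them were. Together they held 4.61%, 7.0% and 5.64% of the circRNA signal in the sham group and 1.32%, 2.43% and 1.21% in the SCI group, values given as a description because the probes were selected by the test on these arrays.

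ASCRPR012694, at position 189, had the largest decrease. Its signal was 3476, 8615 and 5658 units in the sham group and 358, 1015 and 223 units in the SCI group. The lowest sham array was above the highest SCI array, and its rank went from 61, 25 and 52 on the sham arrays to 491, 274 and 845 on the SCI arrays. The log2 fold change was -2.87 ± 0.43 (SE, limma adjusted p = 0.00391), and -3.68 with no normalization. ASCRPR012163, at position 108, was at 4147, 13501 and 7619 units in sham and 538, 1443 and 444 units in SCI. The groups did not overlap here either, and within SCI the array of replicate 2 was again the highest. Its log2 fold change was -2.75 ± 0.45 (SE, limma adjusted p = 0.00487), and -3.42 with no normalization. An exact permutation test of either probe gave a two-sided p of 0.1, the smallest possible.

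The 3 members called higher stood at positions 26, 47 and 65 of the order. ASCRPR000684 was at 6840, 2997 and 6014 units in the sham group and 16853, 14299 and 17377 units in the SCI group. It moved from ranks 20, 148 and 44 on the sham arrays to ranks 4, 6 and 3 on the SCI arrays, where it was among the brightest circRNAs measured. Its log2 fold change was 2.62 ± 0.53 (SE, limma adjusted p = 0.00908), and 1.70 with no normalization. ASCRPR009743 was at 3910, 2457 and 4049 units in sham and 10060, 7883 and 11581 units in SCI. Its signal rose on every SCI array although the total signal of those arrays was lower, as did that of ASCRPR000684. The log2 fold change was 2.01 ± 0.42 (SE, limma adjusted p = 0.0102), and 1.52 with no normalization. For both probes the groups did not overlap, and the exact permutation test gave a two-sided p of 0.1. The third, ASCRPR013357, was named after its values were seen. It was at 2302, 2736 and 2769 units in sham and 2369, 3448 and 2861 units in SCI, groups that overlapped before normalization, and its log2 fold change of 0.96 ± 0.32 (SE, limma adjusted p = 0.0488) was 0.14 with no normalization, where it was not called.

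**Figure D5:**
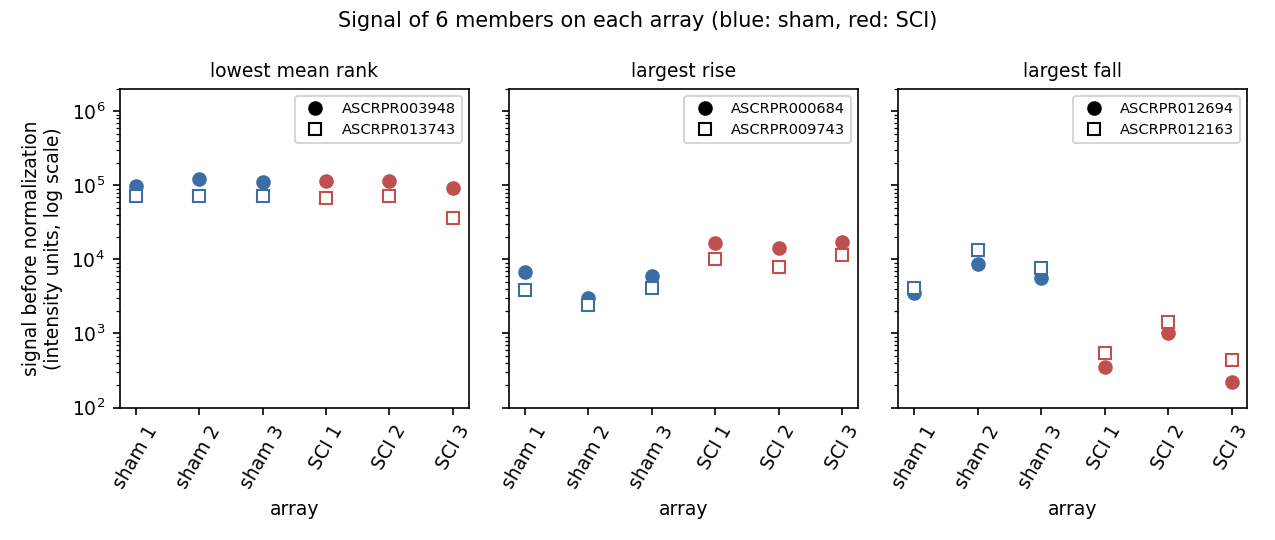
Signal before normalization (log scale, intensity units) is shown on each of the 6 arrays for the 2 members with the lowest mean rank, the 2 with the largest increases and the 2 with the largest decreases. In the left panel sham (blue) and SCI (red) overlap for ASCRPR003948 and lie close together for ASCRPR013743 except on SCI replicate 3, the members of the middle panel are higher on all SCI arrays and those of the right panel are lower on all SCI arrays, least so on SCI replicate 2.

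Between the called probes and the stable top lay a group of members with small shifts. The normalized values of the groups did not overlap for 70 members (35%), beside 44.6% of all tested circRNAs. In SCI 39 of them (19.5% of the members) were higher and 31 (15.5%) lower, beside 21.4% and 23.2% of all tested circRNAs. The 36 members that were higher without overlap and were not called had a median log2 fold change of 0.72 and a largest value of 1.00. Relative to the sham mean, 146 members moved the same way on all 3 SCI arrays. This count and those of the next sentence were not made over all tested circRNAs, and are given as a description. A shift of at least 2-fold from the sham mean was found for 46 members on SCI replicate 1, 26 on SCI replicate 2 and 74 on SCI replicate 3. The members called lower followed the same order, with median log2 differences from the sham mean of -2.33, -1.23 and -2.50 on the 3 SCI arrays. These members were selected by a test on the same arrays, so their differences are given as a description. Slide row and group overlapped, with all sham arrays and SCI replicate 3 in row 1 and SCI replicates 1 and 2 in row 2. Row 2 held no sham array, so a fit with the slide row as a block compares SCI replicate 3 alone with the sham group. In that fit the median log2 fold change of the members was 0.47, beside 0.09 for all tested circRNAs.

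The spread between replicates differed by group and position. The median SD of a member's normalized log2 intensity was 0.45 over the sham arrays and 0.38 over the SCI arrays, while over all tested circRNAs it was 0.31 and 0.51. For the first 50 members it was 0.28 in the SCI group. For the next 200 probes it was 0.44 over the sham arrays and 0.53 over the SCI arrays. On the sham arrays the members thus varied more than the tested circRNAs as a whole, but much like the next 200. On the SCI arrays the members varied less than either, and the number of arrays limits every value given here.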

How the data were processed

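RNA from the cords of 3 sham and 3 SCI rats was hybridized to circRNA arrays with 1 dye. The authors deposited, for each array, the Feature Extraction (version 11.0.1.1) output with the intensity of every spot on a linear scale, before and after background correction, not normalized between arrays. The methods name quantile normalization in limma, low intensity filtering without its rule, a t-test and Benjamini-Hochberg adjustment.

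Shares, sums and ranks used the background-corrected intensity, with outlier spots left out. For the comparison it was log2-transformed, quantile-normalized over all probes that are not controls and tested with limma 3.58.1 in R 4.3.3, among probes that 3 or more arrays measured well above background. Quantities with 1 value per array were compared by an exact two-sided permutation test over 20 assignments. The fit was tested on simulated data. Arrays were not paired by replicate number in the main comparison.

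Named probes are the 5 with the lowest mean rank, the last inside and the first outside the list, the 2 with the narrowest range of ranks, and the 2 largest called changes in each direction with groups that do not overlap. The members, the rule and the tests were chosen with earlier results of these data known. Alternatives covered the scaling, intensity, filter, outlier spots, blocks, test, list length, arrays used for choosing and each array left out. Choosing members by mean log2 intensity, and leaving out an array with members unchanged in the share, were added after seeing the data.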

Additional observations from a re-analysis of the deposited data

How the results depend on the processing

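The number of arrays limits every value, and each array left out leaves 2 in its group. With each array left out in turn, the percent of members called at an adjusted p under 0.05 ran from 7% to 26.5%. It ran from 1% to 7% for higher and from 6% to 19.5% for lower in SCI. Over all tested circRNAs it ran from 7.21% to 42.6% (1.51% to 20.1% higher, 5.70% to 22.5% lower). By fold change 14% to 26.5% of members were called (1% to 8% higher), beside 25.2% to 41.2% of all tested circRNAs (9.92% to 19.1% higher). The median log2 fold change of the members ran from 0.14 to 0.47, and the median range of ranks from 94.5 to 191 places. The difference in share ran from 3.61 to 8.45 points with members chosen anew.

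The labels share replicate numbers but do not say that a number pairs rats. Deviations from the group mean of same-numbered arrays correlated at 0.06, 0.41 and 0.25 over all tested circRNAs and at 0.32, 0.80 and 0.60 over the members, and SCI replicate 1 correlated better with sham replicate 3 (0.45 over the members) than with its own number, so the arrays were taken to share only a number. With the replicate number as a block, 44 members (22%, beside 34.8% of all tested circRNAs) passed the adjusted p, 5% of the members higher (beside 15.8%). This block leaves the fold changes of the members as they were, so it could not change a direction. With the slide row as a block, 29.5% passed by fold change (beside 41.0%), 10.5% higher (beside 19.3%). The 75th percentile gave 3% higher by adjusted p (beside 23.0% of all tested circRNAs) and 3.5% by fold change (beside 25.6%). Cyclic loess and no normalization each gave 1% higher by fold change, beside 13.1% and 5.78%. Without normalization the median log2 fold change reversed to -0.36. The median spot intensity, and its normexp correction, gave 4% higher by adjusted p each, beside 6.75% and 4.38% of all tested circRNAs. By fold change each gave 2.5% higher, beside 4.69% and 1.78%, and they gave 16.5% and 14.5% lower, beside 9.95% and 5.64%. The median spot intensity lowered the difference in the number of probes holding 50% of the signal to -27.7 from -113.7. The methods' t-test called 0 members after adjustment (0% higher, 0% lower, beside 0.143% of all tested circRNAs), 39 at an unadjusted p under 0.05, and 30 (15.1% of those tested, beside 23.6%) at the study's fold change and p. In limma 46 members had an unadjusted p under 0.05. The share of all tested circRNAs at an unadjusted p alone was not counted, so the 39 and the 46 are given as a description.

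Members chosen on sham arrays gave 40% called (38.5% lower), 46% by fold change (44.5% lower), a reversed median log2 fold change of -0.56 and a difference in share of 0.58 points. Members chosen on SCI arrays gave 9% higher and 4.5% lower, by fold change 14% higher and 5.5% lower, a median of 0.58 and 11.1 points. A list of 100 gave 3% higher and a median range of 82.5 places. A list of 400 gave 4% higher, 27.75% by fold change (8.25% higher) and 365.5 places. For all these lists the rates over all tested circRNAs were those of the main fit. These were 24.9% called (9.31% higher, 15.6% lower) and 32.4% by fold change (14.1% higher, 18.3% lower). The mean over members, in place of the median log2 fold change, was 0.0176. Choosing by mean log2 intensity shared 185 members. The cause of these differences was not tested, apart from the construction of each list.

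The 4 named changed probes were called in all 18 alternatives that use limma, and their adjusted p by the methods' t-test ran from 0.0794 to 0.108. ASCRPR013357 was not called in 10 of the 18, with log2 fold changes from 0.14 to 1.18.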
